A study of Mus musculus with 24 samples.

Results

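Voltage-gated potassium channel subunits were examined in RNA-seq libraries of sorted sensory neurons. The members were the protein-coding genes whose symbol begins with Kcn followed by a, b, c, d, f, g, h, q, s, v, e, ab or ip and a number, which gave 52 of the 47643 gene identifiers in the count files. They comprised 30 pore-forming subunits (Kcna, Kcnb, Kcnc, Kcnd, Kcnh and Kcnq), 10 silent subunits (Kcnf, Kcng, Kcns and Kcnv) and 12 auxiliary subunits (Kcne, Kcnab and Kcnip). Another 3 symbols matched the letters but were not protein-coding and were left out.

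A Kv channel is a ring of pore-forming subunits whose voltage-sensing segments open the pore when the membrane depolarizes, and the outward potassium current repolarizes the neuron and limits repeated firing. In DRG neurons, sustained delayed-rectifier currents, rapidly inactivating A-type currents and the slow M-current carried by Kcnq channels set the spike threshold, spike width and firing frequency. Silent subunits form no functional channel alone and change the gating of Kcnb channels when they assemble with them. Auxiliary subunits bind the pore-forming subunits and alter their trafficking or kinetics.

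The study compared mice in which Tsc2, an inhibitor of the growth-promoting kinase complex mTORC1, was deleted in Nav1.8-expressing sensory neurons with controls that kept 1 intact allele. All mice carried Nav1.8-Cre and the Rosa26-ZsGreen reporter of recombination, the Nav-Tsc2 mice with Tsc2 flox/null and the controls with Tsc2 flox/+. Each genotype had 4 mice of 8 to 9 weeks on a mixed C57BL/6 and AJ background, replicates 1 and 2 male and replicates 3 and 4 female. In both genotypes a sciatic nerve had been crushed 3 d earlier, and the L4 DRG came from the other side. From each mouse 3 technical libraries of 100 GFP-positive cells were made, and their counts were summed. The Cre driver is active in nearly all small unmyelinated neurons and also in part of the myelinated ones, so the sorted cells were a mixture of sensory neuron types. The control cells had themselves lost Tsc2 from the floxed allele.

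The 24 libraries held between 8339220 and 34228180 counts on genes, and the summed counts per mouse lay between 47959617 and 61290435. Levels are given as CPM, the counts of a gene as a share of all counts on genes scaled by TMM normalization. Tsc2, summed over all its exons, was at 13.4, 24.6, 21.5 and 24.1 CPM in control replicates 1 to 4 and at 8.70, 8.51, 7.30 and 10.9 CPM in Nav-Tsc2 replicates 1 to 4. The genotypes did not overlap, and the log2 fold change of Tsc2 was -1.24 ± 0.22 (SE; adjusted p = 0.00400, edgeR). The neuronal markers Prph, Tubb3, Uchl1, Scn10a, Avil and Isl1 together held between 9839 and 11660 CPM in control and between 12750 and 15390 CPM in Nav-Tsc2 mice, most of it from Tubb3, while Prph was called higher and Isl1 lower (log2 fold changes 0.72 and -0.80). Endothelial markers summed to 0.326 to 1.79 CPM in control and 7.71 to 20.0 CPM in Nav-Tsc2 mice. Macrophage markers summed to 0.669 to 3.92 CPM in control and 7.90 to 17.4 CPM in Nav-Tsc2 mice, and neither sum overlapped between the genotypes. All 3 tested endothelial genes and 1 of 4 tested macrophage genes were called higher by edgeR, and DESeq2 called 2 macrophage genes higher. Much of these sums came from single genes: in Nav-Tsc2 replicates 1 to 4 Flt1 was at 10.8, 12.7, 3.675 and 7.075 CPM. Cx3cr1 was at 2.82, 6.99, 3.69 and 9.33 CPM in the same mice. C1qa, on the macrophage list, was not tested and had 0 counts in 6 of the 8 mice. Another untested gene of that list had a lower mean in Nav-Tsc2 than in control mice.

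Coding sequence is shown at 2 short places, the first shared by pore-forming and silent subunits and the second different between the silent subunits and the Kcna to Kcnd subunits, because these classes organize the results that follow. The first is the selectivity filter, the narrow part of the pore that coordinates potassium. Each line gives 30 coding bases of the GENCODE transcript from 5′ to 3′, with the 3 codons at the heart of the filter in capitals.
Kcna1: atgaccactgtgGGATACGGTgacatgtac
Kcnb2: atgaccactgtgGGCTACGGTgacatttac
Kcnc1: atgacgacactgGGCTATGGAgacatgtat
Kcnh4: ctcaccagtgtaGGCTTCGGCaacgtgtgt
Kcng1: atgacaaccgtaGGCTACGGAgacatggta
Kcns3: atgaccacagtgGGCTATGGAgacacccac
Kcnv1: atgactacagtaGGATATGGGgacattaga
In 22 of the 30 pore-forming subunits and in all 10 silent subunits these 3 codons read glycine, tyrosine and glycine, and in the 8 Kcnh subunits they read glycine, phenylalanine and glycine. The windows lie in exons (GRCm38) at chr6:126642219-126642248 for Kcna1 (minus strand), chr1:15710040-15710069 for Kcnb2 (plus strand), chr7:46427967-46427996 for Kcnc1 (plus strand), chr11:100750284-100750313 for Kcnh4 (minus strand), chr2:168262632-168262661 for Kcng1 (minus strand), chr12:11091566-11091595 for Kcns3 (minus strand) and chr15:45109280-45109309 for Kcnv1 (minus strand). Auxiliary subunits have no pore and were not searched.

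The second place is the gate, at the inner end of the last transmembrane segment. The next lines give 27 coding bases that hold the gate, with 3 codons in capitals that lie 26 codons behind the filter triplet.
Kcna1: attgccctgCCCGTACCTgtcattgtg
Kcnb2: attgcccttCCTATACCCatcattgtg
Kcnc1: attgccatgCCGGTGCCTgtcatcgtg
Kcng1: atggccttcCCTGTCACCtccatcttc
Kcns3: gtagccctcCCCATTACCatcatcttc
Kcnv1: ttggccttgCCTATTGCCattattaat
All 17 Kcna, Kcnb, Kcnc and Kcnd subunits had a proline codon at the first and at the third place of this triplet. None of the 10 silent subunits did: each kept the first proline codon and had another codon at the third place. These windows lie on the same strands at chr6:126642132-126642158 for Kcna1, chr1:15710130-15710156 for Kcnb2, chr7:46428057-46428083 for Kcnc1, chr2:168262545-168262571 for Kcng1, chr12:11091479-11091505 for Kcns3 and chr15:45109193-45109219 for Kcnv1. Kcnh and Kcnq subunits, whose last segment is built differently, were not read at this place.

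Of the 52 members, 43 passed the filter on low counts and were tested together with all other genes, 25 pore-forming, 9 silent and 9 auxiliary. A gene was called when its adjusted p was under 0.05 and its log2 fold change was under -0.5 or over 0.5. In Nav-Tsc2 mice 16 members were called lower and 2 higher, and 25 were not called. Over all 17178 genes tested, 8.00% were called lower and 9.12% higher. Across the tested members the log2 fold change had a median of -0.97, against 0.01 over all genes, and 34 of the 43 had a negative fold change. The median was -0.57 without control replicate 4, -0.63 without control replicate 3, -0.59 without Nav-Tsc2 replicate 3, -0.54 with a replicate block and -0.51 with the 24 libraries and the mouse as a random effect. The values of the 4 control and 4 Nav-Tsc2 mice did not overlap for 16 members that were lower and 2 that were higher, where 12.3% of all genes did not overlap and were lower and 14.6% did not overlap and were higher. A subunit can be lower in these pools because fewer of the sorted cells expressed it or because it was a smaller share of the RNA in each cell. These cannot be told apart in bulk libraries, and CPM, being a share, does not measure the amount of RNA per cell.

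Calls fell into all 3 classes. The pore-forming class had 10 lower calls, 1 higher call and a median log2 fold change of -0.97. The silent class had 3 lower and 0 higher calls (edgeR; also 0 higher by DESeq2 and at an unadjusted p under 0.05) and a median of -1.22. The auxiliary class had 3 lower calls, 1 higher call and a median of -0.46. Within the pore-forming class the lower calls lay in the Kcna, Kcnb, Kcnc and Kcnq subfamilies, with 3 of 5 tested Kcna genes among them. Of the 3 Kcnd genes and the 7 tested Kcnh genes edgeR called 0 lower, although at an unadjusted p under 0.05 Kcnd2, Kcnd3, Kcnh2 and Kcnh5 were lower and DESeq2 called Kcnd2, Kcnh2 and Kcnh5. Whether one subfamily differed from another was not tested.

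**Figure D1:**
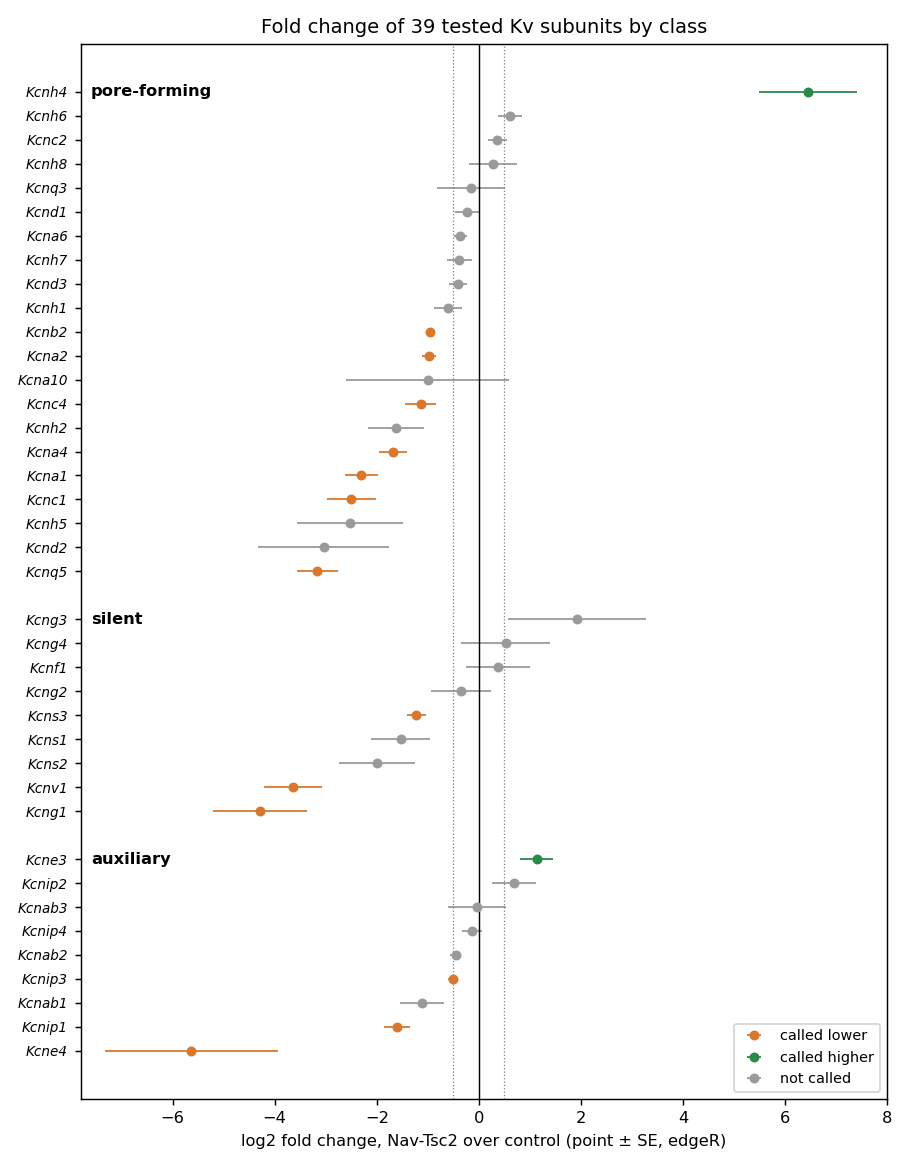
Log2 fold change of 39 tested Kv subunits, Nav-Tsc2 over control (horizontal axis, point ± SE from edgeR), in the pore-forming, silent and auxiliary classes, with the call in colour and dotted lines at -0.5 and 0.5. Most points lie to the left of 0, from Kcne4 at -5.63 to Kcnh4 at 6.44, and 9 lie to its right.

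Among the Kcna subunits, which carry low-threshold currents that hold back firing, Kcna1 had the largest fall of those tested. Its level was 29.5, 46.0, 28.7 and 32.4 CPM in control replicates 1 to 4 and 3.89, 4.65, 8.74 and 10.3 CPM in Nav-Tsc2 replicates 1 to 4. Every Nav-Tsc2 mouse was below every control mouse, and the control mean was 4.96 times the Nav-Tsc2 mean (log2 fold change -2.31 ± 0.33, SE; adjusted p = 0.00125, edgeR). Kcna2, the usual partner of Kcna1 next to the nodes of myelinated axons, was at 89.8, 99.5, 102 and 139.6 CPM in control and at 52.0, 51.9, 55.2 and 60.4 CPM in Nav-Tsc2 mice. The Nav-Tsc2 values were close to each other, and the fall was smaller than that of Kcna1 (log2 fold change -0.97 ± 0.14; adjusted p = 0.00129). Kcna4, which forms A-type channels in small sensory neurons, was at 32.2, 28.5, 24.1 and 44.2 CPM in control and at 13.9, 9.73, 10.9 and 5.81 CPM in Nav-Tsc2 mice (log2 fold change -1.68 ± 0.28; adjusted p = 0.00279). Kcna6 had the highest level per kb of exon in this subfamily, with 13.5 ± 1.95 CPM per kb in control and 10.5 ± 1.43 in Nav-Tsc2 mice (SD, n = 4 each). It was not called (log2 fold change -0.36 ± 0.13; adjusted p = 0.0851), its genotypes overlapped, and 39.6% of its exon bases overlap another annotated gene. Unstranded reads from those bases cannot be told apart by gene, so its level per kb is uncertain. Kcna10 was tested and not called. Kcna3, Kcna5 and Kcna7 did not pass the filter, with 1, 309 and 4 counts in the 12 control libraries and 31, 15 and 9 in the 12 Nav-Tsc2 libraries. Kcna5 was at 2.59, 0.814, 0.0543 and 2.21 CPM in control and at 0.144, 0, 0.0163 and 0.119 CPM in Nav-Tsc2 mice. The genotypes overlapped through control replicate 3, and Kcna5 was called lower by DESeq2, with no filter on low counts and without that mouse.

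The Kcnb subunits carry a large part of the sustained delayed-rectifier current in sensory neurons and are the partners of the silent subunits. Kcnb2 had the smallest adjusted p of all members. Its 8 values were 196, 224, 229.7 and 224 CPM in control and 114, 112, 112 and 109.5 CPM in Nav-Tsc2 mice. The 4 Nav-Tsc2 mice lay within a narrow range, well under every control mouse, and the log2 fold change was -0.97 ± 0.08 (adjusted p = 6.63e-05). Per kb of exon Kcnb2 was at 14.4 ± 1.01 CPM in control and 7.38 ± 0.128 CPM in Nav-Tsc2 mice (SD, n = 4 each).

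Kcnc subunits open at strong depolarization and allow brief spikes. Kcnc1 was at 8.64, 12.8, 2.93 and 11.8 CPM in control and at 2.63, 1.27, 1.11 and 1.37 CPM in Nav-Tsc2 mice. Control replicate 3 lay only just above the highest Nav-Tsc2 mouse, while the other control mice were far higher (log2 fold change -2.50 ± 0.48; adjusted p = 0.00614). Kcnc4, the A-type member of this subfamily and its highest per length, was at 36.7, 35.7, 72.1 and 43.3 CPM in control and at 28.3, 26.2, 18.3 and 12.4 CPM in Nav-Tsc2 mice. It was called lower (log2 fold change -1.14 ± 0.30; adjusted p = 0.0247), and the call was lost without Nav-Tsc2 replicate 3 (adjusted p = 0.0690), without Nav-Tsc2 replicate 4 (adjusted p = 0.0506) and with a replicate block (adjusted p = 0.0574). Kcnc2 was not called, with a log2 fold change of 0.36 ± 0.19.

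Kcnq subunits form the M-current, which opens slowly near rest and damps repeated firing. Kcnq5 showed the largest fall of the tested pore-forming subunits: 12.6, 17.3, 17.6 and 33.2 CPM in control and 1.44, 3.40, 1.45 and 2.69 CPM in Nav-Tsc2 mice. The lowest control mouse was above the highest Nav-Tsc2 mouse (log2 fold change -3.17 ± 0.40; adjusted p = 0.000667). The SD was 8.98 CPM in control and 0.966 CPM in Nav-Tsc2 mice. Per kb of exon Kcnq5 was at 2.62 ± 1.17 CPM in control and 0.292 ± 0.126 CPM in Nav-Tsc2 mice (SD, n = 4 each). Kcnq3, another M-current subunit, was not called (log2 fold change -0.16 ± 0.67), and Kcnq1 did not pass the filter, with 49 counts in control and 107 in Nav-Tsc2 libraries.

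Kcnd1, the most highly expressed pore-forming subunit per length and a carrier of A-type current, was at 123, 138, 276 and 184 CPM in control and at 123, 174, 157 and 158 CPM in Nav-Tsc2 mice. The 2 female control mice were the highest, the genotypes overlapped, and Kcnd1 was not called (log2 fold change -0.23 ± 0.23; adjusted p = 0.540). Kcnd3 was not called either (log2 fold change -0.42 ± 0.18; adjusted p = 0.128). Kcnd2 was close to the limit of detection, with 207 counts in 5 of 12 control and 26 counts in 6 of 12 Nav-Tsc2 libraries. Its log2 fold change was -3.04 ± 1.28 with no call (adjusted p = 0.127, edgeR).

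Kcnh4, a slowly gating subunit of the ether-a-go-go family, was the only pore-forming member called higher. It was at 0, 0.0189, 0 and 0.0402 CPM in control and at 2.28, 0.938, 1.19 and 1.30 CPM in Nav-Tsc2 mice. In all, 3 counts in 2 control libraries stood against 314 counts in all 12 Nav-Tsc2 libraries, a ratio of shares of 104 with an exact 95% interval from 35.2 to 507 that covers counting error only. The fitted log2 fold change of 6.44 ± 0.96 (adjusted p = 0.00166) depends on the prior count of the fit, and Kcnh4 did not pass the low-count filter of the fit on 24 libraries. Even in Nav-Tsc2 mice the level was low, at 0.361 ± 0.149 CPM per kb against 4.31 ± 0.503 for Kcnh7, the highest member of the subfamily. Kcnh7 was at 68.8, 106, 117 and 50.7 CPM in control and at 68.3, 70.2, 54.2 and 69.8 CPM in Nav-Tsc2 mice, and it was not called (log2 fold change -0.38 ± 0.24; adjusted p = 0.299). Flt1 and Ly6c1, which mark endothelial cells, and Cx3cr1, which marks macrophages, were called higher as well. The endothelial list summed to 0.326 to 1.79 CPM in control and 7.71 to 20.0 CPM in Nav-Tsc2 mice with higher calls for 3 of 3 tested genes, and the macrophage list to 0.669 to 3.92 and 7.90 to 17.4 CPM with 1 of 4 tested genes called higher. Pecam1 and Cdh5, also on the endothelial list, did not pass the low-count filter, at or under 1.59 and 0.261 CPM in every mouse. C1qa, on the macrophage list, did not pass it either, and not every gene of that list was higher. Kcnh4 itself was at or under 2.28 CPM in every mouse, and the part of either cell type in its reads was not tested.

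**Figure D2:**
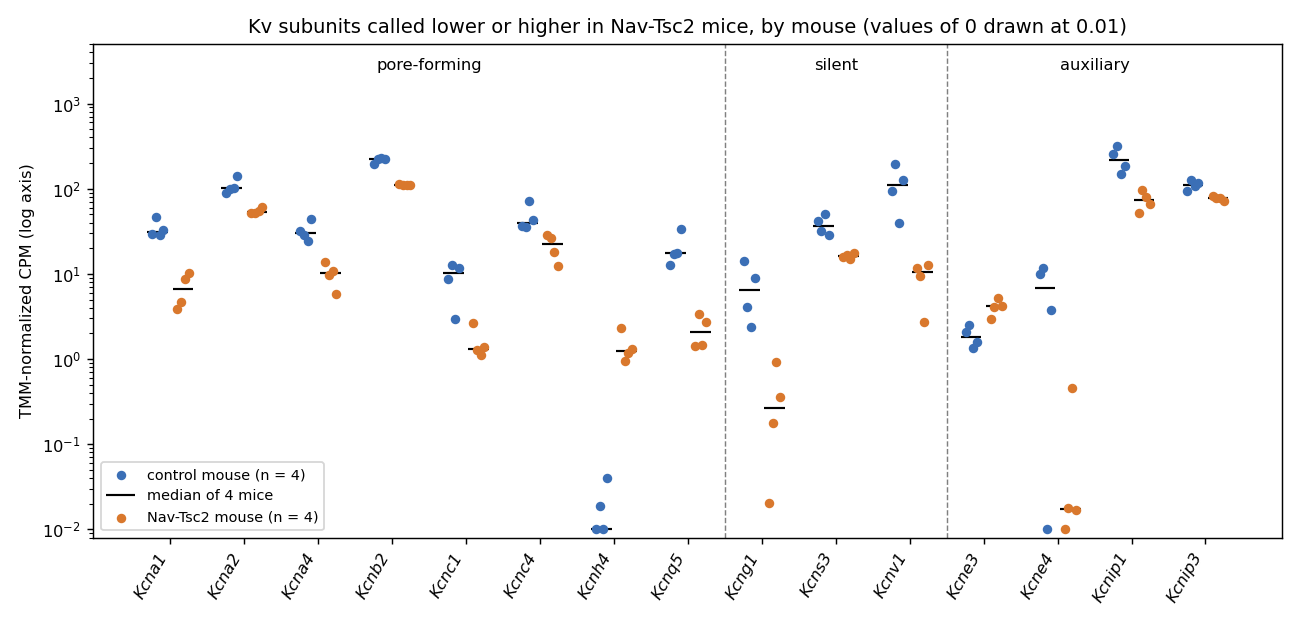
Level of 15 called Kv subunits in each mouse (vertical log axis, TMM-normalized CPM, values of 0 drawn at 0.01), with control mice in blue, Nav-Tsc2 mice in orange and a line at each median of 4. The 2 colours separate for every subunit except Kcne4, where 1 control mouse is at 0, and Kcnh4 and Kcne3 are the only ones with the orange points on top.

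Of the silent subunits, 3 were called lower, among them Kcng1 and Kcnv1, the largest falls of the tested members whose genotypes did not overlap. Kcnv1 was at 94.5, 194, 39.8 and 128 CPM in control and at 11.8, 9.50, 2.73 and 12.6 CPM in Nav-Tsc2 mice. Control replicate 3 and Nav-Tsc2 replicate 3 were the lowest of their groups, and the lowest control mouse was still 3 times or more above the highest Nav-Tsc2 mouse (log2 fold change -3.64 ± 0.56; adjusted p = 0.00199). By level per kb of exon Kcnv1 ranked 7 among the 52 members in control mice and 21 in Nav-Tsc2 mice. Kcng1 was at 14.0, 4.03, 2.37 and 8.84 CPM in control and at 0.0206, 0.177, 0.915 and 0.355 CPM in Nav-Tsc2 mice (log2 fold change -4.29 ± 0.92; adjusted p = 0.00997). It had counts in all 12 control libraries and in 5 of 12 Nav-Tsc2 libraries. Kcns3 was at 41.4, 32.0, 50.3 and 28.5 CPM in control and at 15.8, 16.7, 15.1 and 17.6 CPM in Nav-Tsc2 mice, again with a narrow range in the latter (log2 fold change -1.22 ± 0.18; adjusted p = 0.00159).

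The other silent subunits were low and uneven between mice. Kcnf1 was at 1.07, 2.06, 5.35 and 1.53 CPM in control and at 2.24, 2.41, 6.91 and 1.42 CPM in Nav-Tsc2 mice, with no call (log2 fold change 0.37 ± 0.63; adjusted p = 0.731). Kcns1 and Kcns2 had negative fold changes that missed the threshold (adjusted p = 0.0920 and 0.0856), and DESeq2 called both lower. Kcng2, Kcng3 and Kcng4 were not called, and Kcnv2 did not pass the filter, with 31 counts in control and 0 in Nav-Tsc2 libraries.

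The auxiliary calls lay in the Kcnip and Kcne families. Kcnip proteins are calcium-binding partners that bring Kcnd channels to the surface. Kcnip1 was at 252, 321, 148 and 183 CPM in control and at 52.1, 97.5, 80.8 and 66.5 CPM in Nav-Tsc2 mice, with no overlap (log2 fold change -1.61 ± 0.26; adjusted p = 0.00251). Kcnip3, which also acts as a DNA-binding repressor, was at 93.8, 125, 107 and 116 CPM in control and at 82.4, 78.4, 78.0 and 71.9 CPM in Nav-Tsc2 mice. The fitted log2 fold change, -0.51 ± 0.10, was just past the limit of -0.5 (adjusted p = 0.00730), and it was under that limit in size without control replicate 2 (-0.45), control replicate 4 (-0.49) or Nav-Tsc2 replicate 4 (-0.48). Kcnip4 was the highest of all 52 members per length in both genotypes, 110 ± 32.9 CPM per kb in control and 100.3 ± 11.5 in Nav-Tsc2 mice. It was not called (log2 fold change -0.13 ± 0.20; adjusted p = 0.696), and 7.36% of its exon bases overlap other genes.

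The Kcnab genes encode the cytoplasmic beta subunits that bind Kcna channels. Kcnab2 was at 281, 319, 275 and 335 CPM in control and at 203, 243, 198 and 237 CPM in Nav-Tsc2 mice. The genotypes did not overlap and the adjusted p was 0.0120, but the log2 fold change of -0.46 ± 0.10 was smaller than the fold limit, so it was not called. Of the 3 Kcnab genes edgeR called 0. At an unadjusted p under 0.05 Kcnab1 was lower too, and DESeq2 called it.

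Kcne genes encode small single-pass subunits. Kcne3, best known as a partner of Kcnq1 and also found with Kcnc4, was at 2.05, 2.48, 1.34 and 1.61 CPM in control and at 2.92, 4.09, 5.18 and 4.20 CPM in Nav-Tsc2 mice. It was called higher (log2 fold change 1.13 ± 0.33; adjusted p = 0.0353), and the call was lost with a replicate block (adjusted p = 0.101), with no filter on low counts (adjusted p = 0.0667) and in 6 of the 8 fits that left out 1 mouse (adjusted p from 0.0587 to 0.0958), those without replicate 1, 3 or 4 of the controls or 2, 3 or 4 of the Nav-Tsc2 mice. Kcne4 was at 9.88, 11.9, 0 and 3.75 CPM in control and at 0, 0.0177, 0.457 and 0.0169 CPM in Nav-Tsc2 mice. Control replicate 3 had no count, so the genotypes overlapped, and counts were present in 8 of 12 control and 3 of 12 Nav-Tsc2 libraries. The call (log2 fold change -5.63 ± 1.70; adjusted p = 0.0421) was lost in 6 of the 8 fits that left out 1 mouse (adjusted p from 0.0576 to 0.109), all but those without control replicate 3 or Nav-Tsc2 replicate 3, with a replicate block (adjusted p = 0.168) and with sex as a covariate (adjusted p = 0.0861). Kcne1, Kcne1l and Kcne2 did not pass the filter, with 3, 31 and 11 counts in control and 20, 0 and 2 in Nav-Tsc2 libraries.

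The make-up of the family was compared per kb of exon, since longer transcripts collect more reads. The members summed to 478 ± 65.7 CPM per kb in control (from 411 to 538) and to 352 ± 12.6 in Nav-Tsc2 mice (from 342 to 369.5). Silent subunits held 9.99%, 13.0%, 5.95% and 8.00% of this sum in control replicates 1 to 4 and 2.88%, 2.90%, 2.49% and 3.13% in Nav-Tsc2 replicates 1 to 4, with no overlap. The largest part of this difference came from the Kcnv genes, with 5.40% ± 3.35 in control and 0.575% ± 0.286 in Nav-Tsc2 mice (SD). Kcns genes held 3.15% ± 0.777 and 1.73% ± 0.0964. The small Kcng share went from 0.567% to 0.353%, and that of Kcnf rose from 0.106% to 0.190%. Pore-forming subunits held 30.5% ± 1.57 in control and 26.9% ± 1.96 in Nav-Tsc2 mice, and those ranges overlapped. Their level itself separated, from 126 to 170.2 CPM per kb in control and from 90.0 to 99.3 in Nav-Tsc2 mice. Auxiliary subunits held 60.3% ± 3.36 in control and 70.2% ± 2.18 in Nav-Tsc2 mice without overlap, most of it from Kcnip genes, while their summed level was 289.9 ± 53.9 CPM per kb in control and 247 ± 16.2 in Nav-Tsc2 mice and overlapped. These shares describe the same counts that were tested gene by gene, and no separate test was made on them.

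**Figure D3:**
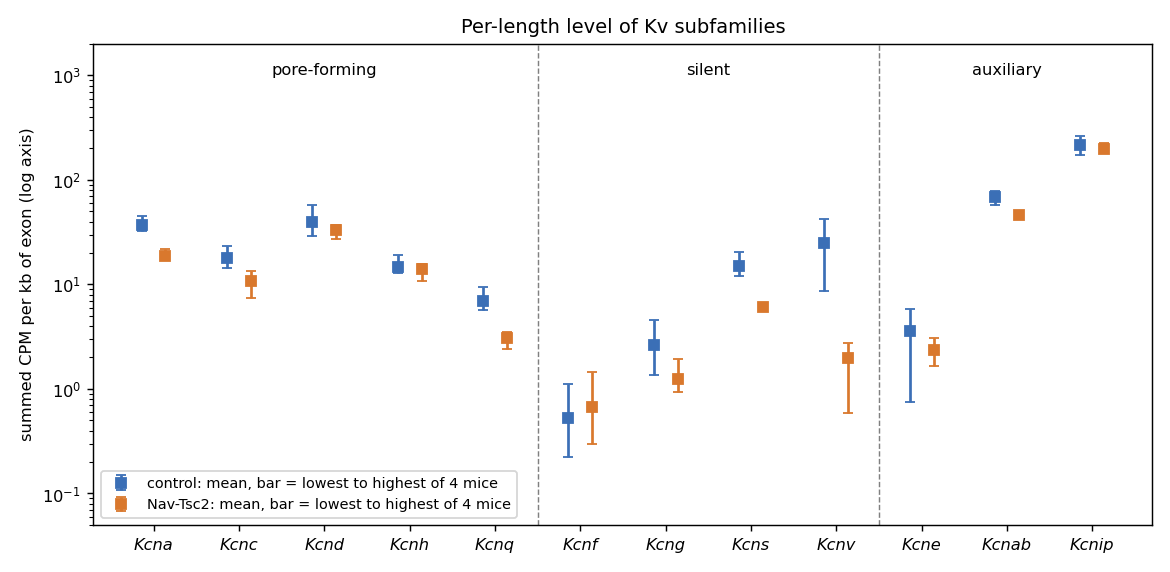
Summed level of 12 Kv subfamilies in CPM per kb of exon (vertical log axis), as the mean of 4 control mice in blue and 4 Nav-Tsc2 mice in orange with bars from the lowest to the highest mouse. Kcnip is highest in both genotypes, Kcna, Kcnab, Kcnc, Kcnq, Kcns and Kcnv are lower in every Nav-Tsc2 mouse than in any control mouse, and Kcnd, Kcne, Kcnf, Kcng, Kcnh and Kcnip overlap.

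Changes with genotype were also read separately in males and females, 2 mice per sex and genotype. All 18 called members had a fold change of the same sign in both sexes, as did 39 of the 43 tested. The calls were made on these same mice, so the shared sign is no separate evidence. No share over all genes is given beside these counts, so they cannot be set against genes in general. Sizes differed: the log2 fold change of Kcnc4 was -1.91 in females and -0.41 in males, and that of Kcna1 was -1.68 and -3.14. The interaction of genotype and sex passed an adjusted p of 0.05 for 0 of the 43 tested members (edgeR) and for 0.00582% of all genes, and 6 of the 43 had an unadjusted p under 0.05, as did 9.22% of all genes. The smallest adjusted p among members, 0.0599, belonged to Kcnip2, which was singled out after its values were seen. Kcnip2 was at 64.7 and 52.8 CPM in male controls, 219 and 217 in female controls, 223 and 190.3 in male and 254 and 220.0 in female Nav-Tsc2 mice. The 2 male controls stood apart from the other 6 mice. The fit on 24 libraries, in which mouse was a random term, called Kcnip2 higher in Nav-Tsc2 mice. Kcnab1, likewise chosen after its values were seen, was at 54.5 and 52.4 CPM in male and 221 and 149 CPM in female controls, and at 44.7, 48.2, 64.5 and 64.1 CPM in Nav-Tsc2 mice, where the female controls stood apart (interaction adjusted p = 0.185).

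The 6 nonpeptidergic marker genes (Mrgprd, P2rx3, Gfra2, Ret, Lpar3 and Plxnc1) summed to 559.7 and 511 CPM in the male controls and to 1716 and 1434 CPM in the female controls. In Nav-Tsc2 mice they summed to between 1730 and 1892 CPM. Of the 6, edgeR called 0, at an unadjusted p under 0.05 Mrgprd alone was higher, and DESeq2 as run here called 0. The authors' published DESeq2 comparison lists Mrgprd and Ret as higher. Their part in the levels of Kcnip2 and Kcnab1 was not tested.

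**Figure D4:**
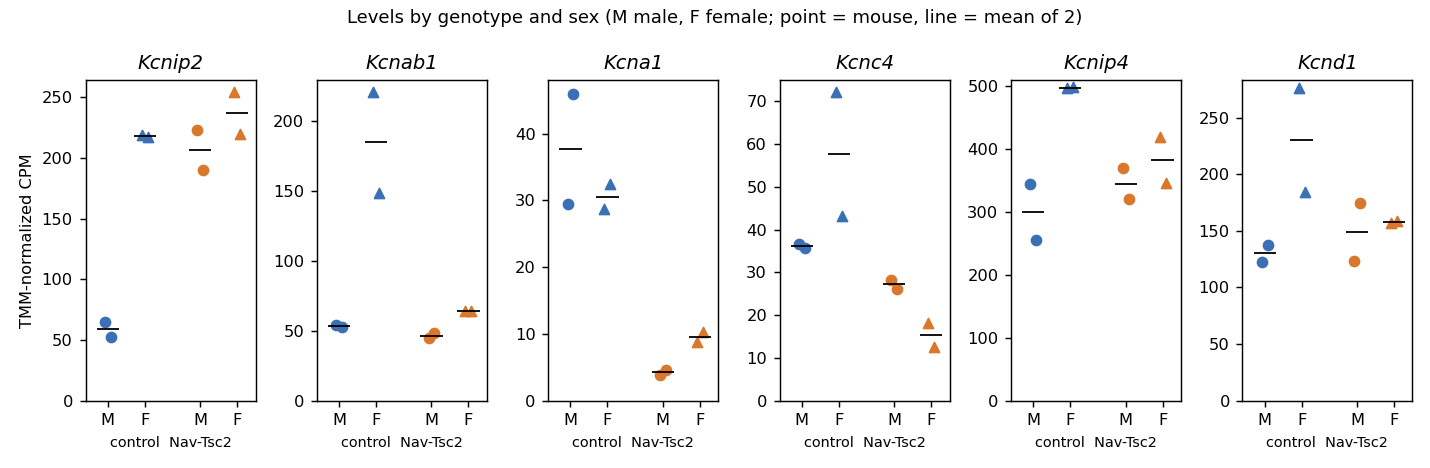
Level in TMM-normalized CPM (vertical axes, each from 0) of the 6 Kv subunits with an unadjusted interaction p under 0.05, in males (M, circles) and females (F, triangles) of each genotype, with a line at the mean of 2 mice. Kcnip2 is low in the male controls alone, and Kcnab1 is high in the female controls alone.

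Genes whose products anchor, traffic or regulate Kv channels were read from a list of 25, of which 24 were tested. There were 7 lower calls and 1 higher call, and their median log2 fold change was -0.38. The called genes included Cntnap2, which holds Kcna channels next to the nodes, at 301, 340.3, 192 and 336 CPM in control and 149, 142, 173 and 118 CPM in Nav-Tsc2 mice (log2 fold change -1.01 ± 0.18; adjusted p = 0.00474). Adam22, Adam23, Adam11, Lgi1 and Lgi3, members of the complex that binds Kcna channels on axons, had log2 fold changes of -0.99, -0.52, -1.46, -0.84 and -2.03. Lgi2, of the same family, had a log2 fold change of 2.02 ± 0.90 and was not called. Adam22 had the smallest adjusted p of the list (0.000267). Dpp6, a membrane partner of Kcnd channels, was lower by the same test (log2 fold change -0.66 ± 0.12; adjusted p = 0.00542), while Dpp10 was not called (0.69 ± 0.30). Ehmt2, a histone methyltransferase known to silence Kv genes after nerve injury, was the gene called higher, at 9.27 ± 1.83 CPM in control and 14.8 ± 2.56 CPM in Nav-Tsc2 mice (SD, n = 4 each) without overlap (log2 fold change 0.68 ± 0.19; adjusted p = 0.0342). Rest, a repressor of neuronal genes, had a log2 fold change of 0.50 ± 0.25 and was not called.

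Because subunits differ between sensory neuron types, marker lists are given beside these results. Of 12 genes of myelinated and large neurons 3 were called lower and 0 higher (edgeR; 1 higher by DESeq2 and at an unadjusted p under 0.05). The 3 were Scn8a, Scn1a and Cntnap2, and the list summed to 3845 to 5542 CPM in control and 3134 to 4286 CPM in Nav-Tsc2 mice, while Nefh, Nefm and Nefl were not called. Of 5 peptidergic genes 2 were called lower, among them Calca, with sums of 9472 to 19210 CPM in control and 4192 to 6964 CPM in Nav-Tsc2 mice. All 4 itch-neuron genes were called lower, from sums of 61.8 to 307 CPM in control to 0.849 to 11.9 CPM in Nav-Tsc2 mice, and in Nav-Tsc2 mice Sst and Mrgpra3 averaged 0.133 and 0.0768 CPM. Of 4 low-threshold C-fiber genes 1, Th, was called higher, and of 12 genes of satellite glia and Schwann cells 1, S100b, was called lower. Of 7 genes that rise after nerve injury 6 were called higher, with sums of 1304 to 2594 CPM in control and 4436 to 5405 CPM in Nav-Tsc2 mice. Of 6 fibroblast genes 0 were called by edgeR, by DESeq2 or at an unadjusted p under 0.05, and of 2 red blood cell genes 0 were called by edgeR and 2 lower by DESeq2 and at an unadjusted p under 0.05. The part of neuron types or of the injury genes in the Kv values was not tested.

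Sequence upstream of the members was read from RefSeq (GRCm38.p6), which held 35 of the 52 symbols. In the 250 bases before a listed start, the GC box (GGGCGG, either strand) was found for 24 of the 35, or 68.6%, and for 35.4% of all 27025 genes in the table. It was found for 6 of the 9 members called lower and for 13 of the 19 tested and not called. The E-box (CACGTG, which reads alike on both strands) was found for 3 members, or 8.57%, and for 6.86% of all genes, and the TATA box (TATAAA, either strand) for 0 members and for 14.3% of all genes. A gene counted when any of its listed starts had the letters, and some members had several starts. The members are all protein-coding, and the genes in the table were not matched to them for gene type or number of starts. The percentages therefore describe unlike sets, and the difference between them was not tested. Kcnc1 and Kcnh4 are printed because, among members with 1 listed start and no overlap between the genotypes, they had the largest fall and the largest rise. Capitals mark the GC box. The window of Kcnc1 is chr7:46396218-46396467 on the plus strand and that of Kcnh4 chr11:100759779-100760028 on the minus strand, each ending at the base before the start of transcription.
Kcnc1: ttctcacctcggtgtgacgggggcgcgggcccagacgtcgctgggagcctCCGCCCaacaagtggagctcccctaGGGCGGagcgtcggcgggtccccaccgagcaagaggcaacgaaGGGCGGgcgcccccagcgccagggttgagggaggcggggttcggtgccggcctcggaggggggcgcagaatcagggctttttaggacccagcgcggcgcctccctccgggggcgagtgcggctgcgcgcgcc
Kcnh4: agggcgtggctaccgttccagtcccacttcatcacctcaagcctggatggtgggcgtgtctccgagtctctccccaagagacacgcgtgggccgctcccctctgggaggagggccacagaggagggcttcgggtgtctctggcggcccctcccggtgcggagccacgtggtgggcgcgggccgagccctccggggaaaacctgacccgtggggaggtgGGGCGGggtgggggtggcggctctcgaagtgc
The Kcnc1 window held 3 GC boxes and no E-box with 74.4% G and C, and the Kcnh4 window held 1 GC box and 1 E-box with 70.8% G and C. Whether any factor bound these letters was not measured.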

How the data were processed

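Single 50-base reads from libraries made without strand information were aligned by the authors to mm10 with STAR and counted per gene with HTSeq, and the authors deposited raw counts per gene and library without normalization. Reads that HTSeq left without a gene, a median of 48.4% in control and 50.7% in Nav-Tsc2 libraries, were kept out of all totals. The deposited table of the authors' own DESeq2 comparison (normalized means, fold changes and p-values) was not used. The 3 technical libraries of each mouse were summed, and differences were tested with the edgeR quasi-likelihood test (edgeR 4.0.16, R 4.3.3) after filterByExpr and TMM normalization, with Benjamini-Hochberg adjustment over 17178 genes. Standard errors were taken as the size of the log2 fold change over the root of F. Alternatives were DESeq2 1.42.0, its size factors, omission of the filter, a block for replicate number, sex as a covariate, limma 3.58.1 on 24 libraries, each mouse left out, and other thresholds. Exon lengths, coordinates and coding sequences came from GENCODE vM21 (GRCm38), and 47224 of 47643 identifiers matched a symbol.

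Some members and marker genes are counted in the totals but not reported here by name. Of the others, those named were the called members, the highest tested member per length of each subfamily, members without overlap, Tsc2 and called partner genes. Other members and partner genes without a call, among them those singled out by other tools or by sex, were picked with their values in view. The members and lists were chosen with earlier results of these data known. The reads carried no molecular identifiers, so intervals cover counting error only.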

Additional observations from a re-analysis of the deposited data

Results flagged for a closer look

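In 4 of 50 groups of 4 mice, formed by the 25 named members and the 2 genotypes, the highest or lowest mouse lay far from the other 3, and chance would give about 2.5. Kcne4 was at 0.457 CPM in Nav-Tsc2 replicate 3, high for its group, where the other Nav-Tsc2 mice had at most 0.0177 CPM. Kcna6 was at 75.2 CPM in Nav-Tsc2 replicate 4, above the 56.8 to 59.5 CPM of the other 3. Kcnb2 was at 196 CPM in control replicate 1, below the 224 to 229.7 CPM of the other 3 and still above every Nav-Tsc2 mouse. Kcnh7 was at 54.2 CPM in Nav-Tsc2 replicate 3, below the 68.3 to 70.2 CPM of the other 3.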

How the results depend on the processing

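Between 14 and 23 members were called lower under the alternatives tried, 23 of them with DESeq2, against 16 as reported. The number called higher was 1 with no low-count filter, with the replicate block and at an adjusted p under 0.01, and from 1 to 2 when 1 mouse was left out. It was 3 with 24 libraries and the mouse as a random effect, where Kcnh6 and Kcnip2 were added and Kcnh4 did not pass that filter on low counts. The median log2 fold change of the tested members was -0.80 with DESeq2, -0.78 with no low-count filter, -0.87 with sex as a covariate, -0.51 with 24 libraries and the mouse as a random effect, and from -0.96 to -0.57 when 1 mouse was left out. With the replicate number as a block it was -0.54, and 15 members were called lower. When 1 mouse was left out, the log2 fold change of Kcnd1 ranged from -0.38 to 0.040 (without control replicate 3) and that of Kcnf1 from -0.31 (without Nav-Tsc2 replicate 3) to 1.06, neither of them called. The cause of these changes was not tested. Over the 25 named members and all alternatives, 367 values kept direction and side of the threshold, 26 lost a call and 3 gained one. Kcna1, Kcna2, Kcna4, Kcnb2, Kcnc1, Kcnq5, Kcng1, Kcns3, Kcnv1 and Kcnip1 were called lower in all 16 alternatives. The shared replicate numbers were not taken to pair the mice: deviations from the genotype means over 8445 genes correlated at 0.101, 0.121, 0.0341 and 0.124 for the 4 numbers, with 0.5 CPM added before the logarithm, and with 0.01 CPM added all 4 were above 0.1, as were pairs of the same sex with unequal numbers. With 4 mice a genotype and members such as Kcne4 and Kcnd2 absent from many libraries, small differences were not detectable.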
